A study of Mus musculus with 4 samples.

Results

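Clusters 0 and 7 are groups of cells in the authors' deposited table, where the marker genes of 15 numbered clusters are given relative to the remaining cells. Every entry for cluster 0 or cluster 7 was used, which gave 82 and 74 of the 2212 entries and 103 of the 1197 genes. The cells came from a directed cardiac differentiation of mouse embryonic stem cells, read by droplet single-cell RNA sequencing in 4 libraries. These were mesoderm cells of the BRG1 3XFLAG; BRM KO genotype, mesoderm cells of the BRG1 3XFLAG genotype, cardiac-stage cells of BRG1 3XFLAG; BRM KO and cardiac-stage cells of BRG1 3XFLAG. All 4 therefore carried the tagged BRG1, and the lines were at passage 2 to 4 per the labels. BRG1 and BRM are alternative motors of the BAF chromatin remodelling complex. Each group had 1 library, so no value below has a replicate, a standard deviation or a test.

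No column of the table names a library, and its title refers to the Brm knockout alone. Which libraries supplied the cells of clusters 0 and 7 could not be read from it, and neither genotypes nor stages were compared. Cell numbers and depth per cell are unknown, so no counting interval was made. The clusters were formed from the expression of these same genes. Their marker genes are therefore a description of what set the cells apart, and nothing below tests it. Smarca2, which encodes BRM, had 0 entries, so the genotype labels could not be checked with it.

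Mesoderm arises as epiblast cells pass through the primitive streak, and its cells then take paraxial, lateral plate or cardiac fates. Paraxial mesoderm lies beside the neural tube and forms the somites. Retinoic acid, Wnt, BMP, Nodal and Notch signals pattern these cells, and secreted antagonists, binding proteins and degrading enzymes set how much of each signal a cell receives.

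The 6 genes that gave the clusters their working name were all in the table, and each cluster had 5 of them listed higher. Crabp1, Tcf15, Ifitm1 and Cer1 were listed higher in both, Fst only for cluster 0 and Aplnr only for cluster 7. Of 5 genes of a paraxial mesoderm and somite list that were in the table, 2 were listed higher in each cluster (Tcf15 and Fst in cluster 0, Tcf15 and Dll3 in cluster 7). Tcf15 and Fst also gave the clusters their working name, so only Dll3 stands apart from it. The background was 3.09% of the 1197 genes listed higher in cluster 0 and 3.34% listed higher in cluster 7. The primitive streak gene T had 0 entries in either cluster. The other 20 genes of the paraxial list are not in the table, so the name mesoderm rests on few genes.

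Cluster 0 held 15.5% of all cells and cluster 7 held 6.95%, or 22.5% together. These sizes were solved from the shares of cells that detect each gene inside and outside the clusters. A gene entered the authors' table at an absolute natural log fold change of at least 0.50, which is a 1.65-fold change, and with at least 25.1% of cells detecting it on one side. The folds and levels below were treated as ratios of means with a constant added to each. Such ratios are smaller than ratios of the means alone, most of all for genes with low means. Cluster 0 had 37 genes listed higher and 45 listed lower, and cluster 7 had 40 higher and 34 lower. Both lists held 24 higher genes, 64.9% of those of cluster 0 and 60% of those of cluster 7. They shared 29 lower genes, 64.4% of those of cluster 0 and 85.3% of those of cluster 7. Every one of these 53 genes had the same sign in both. Both clusters are set against nearly the same remaining cells, so the lists are not independent.

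**Figure D1:**
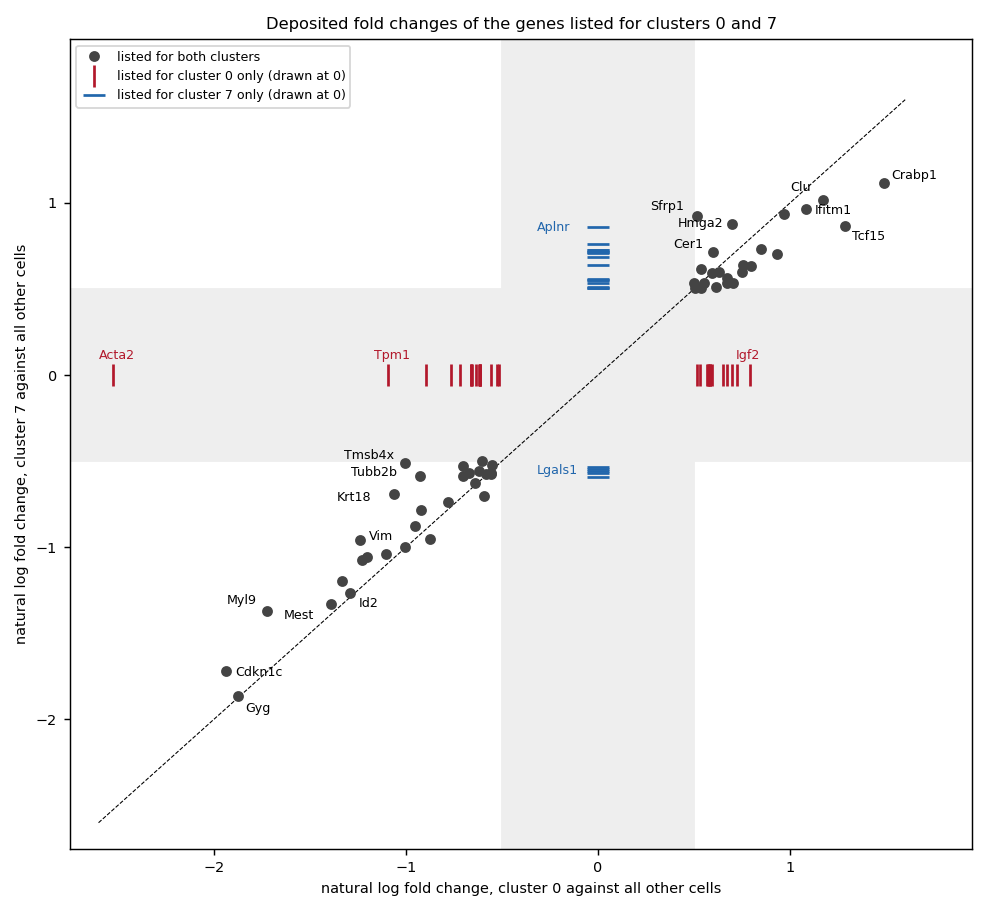
Natural log fold change in cluster 0 (x axis) and cluster 7 (y axis), each against all other cells, from the authors' deposited table. The 53 shared genes lie along the dashed line of equal values, and the grey band marks changes below 0.5. The 29 genes listed for cluster 0 only and the 21 for cluster 7 only are drawn at 0 on the axis where they are not listed. Where detection may have been too low for an entry, their change on that axis is not known to be below 0.5.

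Genes that bind or remove retinoic acid were led by Crabp1, which encodes a cytoplasmic retinoic acid-binding protein. In the authors' deposited table, 79.9% of cluster 0 cells detected Crabp1, against 19.2% of the remaining cells, and it was listed at 4.44-fold higher. In cluster 7 the authors' deposited table gave 81.2% of cells against 24.7%, at 3.06-fold higher. The cells that cluster 7 is set against include those of cluster 0. Relative to all cells the level was 2.89-fold in cluster 0 and 2.68-fold in cluster 7, derived from the authors' deposited table. The authors' deposited table listed Crabp1 lower in 9 other clusters, where between 4.4% (cluster 4) and 27.3% (cluster 11) of cells detected it. Cyp26a1, the enzyme that degrades retinoic acid, was listed for cluster 7 and not for cluster 0. The authors' deposited table showed Cyp26a1 in 40.5% of cluster 7 cells and 10.8% of the others, 2.14-fold higher. Clusters 3 and 14 listed it higher as well, at 2.16-fold and 1.74-fold per the authors' deposited table. Among 5 retinoic acid genes listed anywhere, 1 was thus listed higher in cluster 0 and 2 in cluster 7. Across the 1197 genes the shares listed higher were 3.09% and 3.34%, and Crabp1 is a gene of the working name.

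The 250 bases before the start of Crabp1 and of Cyp26a1 are shown because these are the leading binding-protein gene and the degrading-enzyme gene of the retinoic acid group. They are RefSeq promoter sequences on GRCm38.p6, a later build than the mm9 the submitters name, and 73 of the 103 genes had an entry there. Capitals in Crabp1 (chr9:54764498-54764747, plus strand) mark GGCGCC, a sequence that SMAD proteins of the BMP pathway are known to bind. Capitals in Cyp26a1 (chr19:37697558-37697807, plus strand) mark 2 hexamer half-sites of the retinoic acid response element DR5, spaced by 5 bases.
Crabp1: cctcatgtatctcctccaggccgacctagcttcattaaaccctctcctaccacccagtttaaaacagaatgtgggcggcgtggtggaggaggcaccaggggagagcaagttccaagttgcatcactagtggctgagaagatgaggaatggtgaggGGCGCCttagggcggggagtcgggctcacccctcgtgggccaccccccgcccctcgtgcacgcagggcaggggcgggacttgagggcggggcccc
Cyp26a1: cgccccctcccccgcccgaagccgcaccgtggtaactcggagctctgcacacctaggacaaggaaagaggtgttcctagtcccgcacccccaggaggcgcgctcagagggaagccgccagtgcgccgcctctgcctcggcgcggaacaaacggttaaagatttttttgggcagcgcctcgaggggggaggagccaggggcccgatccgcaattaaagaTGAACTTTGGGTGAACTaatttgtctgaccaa
The DR5 match of Cyp26a1 lay 32 to 16 bases before the start. A DR5 on either strand stood in the same window of 28 of 27025 genes (0.104%), and Cyp26a1 was the single match among the 73 genes with an entry. GGCGCC, which reads the same on both strands, stood in 14 of the 73 and in 10.8% of all genes with an entry. A match describes letters in this window and not a bound site.

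Transcription factors made up another shared group. Tcf15, also called paraxis, is a basic helix-loop-helix factor needed for somites to become epithelial. It was detected in 53.8% of cluster 0 cells and 6.3% of all others, at 3.62-fold higher per the authors' deposited table. For cluster 7 the authors' deposited table had 49.5% and 11%, at 2.38-fold higher. No other cluster listed Tcf15, which at 13.7% of all cells was detected too rarely for a cluster to list it lower. Together the 2 clusters held 86.3% of all cells that detected it, and 2.42% of the cells of the other 13 clusters detected it, as derived from the authors' deposited table. Tbx1, a T-box factor of pharyngeal mesoderm, was also found mainly in the pair, in fewer cells. The authors' deposited table found Tbx1 in 29.0% of cluster 0 cells against 5.3%, and in 27.2% of cluster 7 cells against 7.6%. The pair held 71.3% of the cells detecting it. The homeobox gene Irx3 was found in 28.8% of cluster 0 cells against 8.9% and in 35.3% of cluster 7 cells against 10.2% per the authors' deposited table. Nr6a1, an orphan nuclear receptor that represses Pou5f1, was listed at 1.71-fold higher in cluster 0 and 1.66-fold in cluster 7 per the authors' deposited table.

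Tcf15, Gchfr, Tbx1, Col23a1, Mogat2, Irx3 and Nr6a1 were the 7 shared higher genes that no other cluster listed. At most 14.1% of all cells (Mogat2) detected any of them, and an entry needed at least 25.1% on one side. Other clusters therefore could not list these genes as lower, and could list them as higher only with enough detecting cells of their own. Their missing entries elsewhere partly reflect this threshold and are not by themselves a sign of restriction to the pair. The pair held between 55.0% (Mogat2) and 86.3% (Tcf15) of the cells that detected each one. The share was 81.2% for Gchfr, which regulates the enzyme that starts tetrahydrobiopterin synthesis, and 76.4% for Col23a1, a transmembrane collagen. Gchfr was seen in 30.6% of cluster 0 cells and 4.4% of the remainder, and in 30.4% of cluster 7 cells against 6.8%, per the authors' deposited table. Its detecting cells made up 2.05% of the other 13 clusters. Mogat2, a monoacylglycerol acyltransferase gene, was listed at 1.85-fold higher in cluster 0 and 1.67-fold in cluster 7 per the authors' deposited table. None of these 7 genes was detected in more than 53.8% of the cells of either cluster per the authors' deposited table. Ncl, at the other extreme, was detected in 75.8% of the cells of the other 13 clusters, and the pair held 27.3% of its detecting cells beside 22.5% of all cells.

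**Figure D2:**
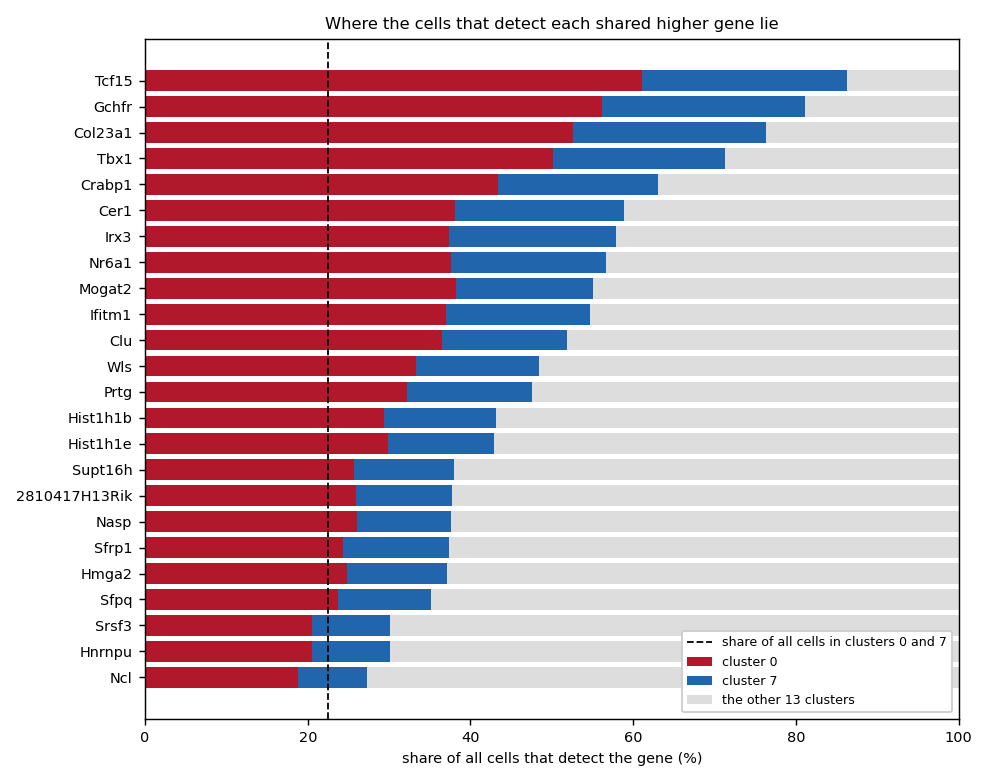
For each of the 24 genes listed higher in both clusters, the bar divides all cells that detect the gene among cluster 0, cluster 7 and the other 13 clusters (x axis, percent), as solved from the authors' deposited table. The dashed line is the 22.5% of all cells that the pair holds, and the red and blue parts together run from 27.3% for Ncl to 86.3% for Tcf15.

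Among secreted regulators, Cer1 was listed for both clusters and Fst for cluster 0. Cer1 (Cerberus), which is secreted and blocks Nodal and BMP ligands, was detected in 39.1% of cluster 0 cells against 11.7%, and in 47.9% of cluster 7 cells against 13.6%, per the authors' deposited table. Cluster 3, whose leading genes were Krt8 and T, listed Cer1 at 3.43-fold higher with 55.3% of cells detecting it per the authors' deposited table. Fst, which binds activin, was in 33.8% of cluster 0 cells and 11.3% of the others at 2.07-fold higher per the authors' deposited table, and cluster 14 was the single other cluster that listed it. Of 12 genes of a BMP, TGF-beta and Nodal list in the table, 2 were listed higher in cluster 0 and 1 in cluster 7. These were Cer1 and Fst, both genes of the working name. Over the 1197 genes the shares listed higher were 3.09% and 3.34%.

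Wnt pathway proteins included Wls, the carrier that Wnt ligands need to leave the cell, and Sfrp1 and Frzb, which bind Wnt ligands outside it. Wls was listed in both, at 2.34-fold higher in cluster 0 and 2.08-fold in cluster 7 per the authors' deposited table. Sfrp1 was detected in 70.9% of cluster 0 cells against 40.5%, and in 84.8% of cluster 7 cells against 42.3%, with folds of 1.68 and 2.53 per the authors' deposited table. Without cluster 2, a cluster of heart muscle genes, among the other cells, Sfrp1 was 1.51-fold higher in cluster 0, below the 1.65-fold threshold, and 2.30-fold in cluster 7. Its level in cluster 7 was 1.51 times that in cluster 0, the largest such ratio among the 24 shared higher genes. Cluster 5 also listed Sfrp1 higher. Frzb was listed for cluster 7 at 1.71-fold higher, in 25.8% of cells against 6.8%, per the authors' deposited table. Of 9 genes of a Wnt list in the table, 1 was higher in cluster 0 (Sfrp1) and 2 in cluster 7 (Sfrp1 and Frzb). Among all 1197 genes, 3.09% were listed higher in cluster 0 and 3.34% in cluster 7. The Wnt list does not hold Wls.

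Aplnr, the receptor for apelin and Elabela in early mesoderm, was listed for cluster 7 alone among the 15 clusters. The authors' deposited table had Aplnr in 42.0% of cluster 7 cells and 7.5% of all others, at 2.36-fold higher. Lhx1, a LIM homeobox factor of streak-derived mesoderm, stood at 27.5% against 5.2% and 2.04-fold higher in cluster 7 per the authors' deposited table, and cluster 3 listed it at 2.16-fold. Dll3, a Notch ligand of presomitic mesoderm, was in 28.7% of cluster 7 cells against 5.3%, also 2.04-fold higher per the authors' deposited table. In the authors' deposited table, cluster 12 listed Dll3 at 3.27-fold higher. Of 11 streak and nascent mesoderm genes in the table, 3 were listed higher in cluster 0 and 6 in cluster 7. Over all 1197 genes the shares were 3.09% and 3.34%. All 3 of cluster 0 (Cer1, Fst and Ifitm1) are genes of the working name. So are Aplnr, Cer1 and Ifitm1 in cluster 7, while Cyp26a1, Dll3 and Lhx1 are not. The genes of the name add no separate support for it. Aplnr, Lhx1, Dll3, Cyp26a1 and Fst were detected in under 25% of all cells, where a missing entry may mean only that detection was too low. Whether their levels differ between the clusters is therefore not known.

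Ifitm1, a membrane gene expressed in early mesoderm, and Clu, a secreted chaperone, were among the leading genes of both. Ifitm1 was in 75.7% of cluster 0 cells against 23.7% and in 81.0% of cluster 7 cells against 28.1%, at 2.95-fold and 2.63-fold higher per the authors' deposited table. The authors' deposited table also put Ifitm1 at 2.54-fold higher in cluster 3, and 10 clusters listed it lower, down to 0.9% of cells in cluster 2. Clu was 3.22-fold higher in cluster 0 and 2.77-fold in cluster 7 per the authors' deposited table. Prtg, protogenin, an immunoglobulin-family receptor of the early embryo, was 2.64-fold higher in cluster 0 and 2.55-fold in cluster 7 per the authors' deposited table. Unlike Tcf15, these 3 genes were also common elsewhere, and between 14.7% (Clu) and 22.8% (Prtg) of cells in the other 13 clusters detected them.

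**Figure D3:**
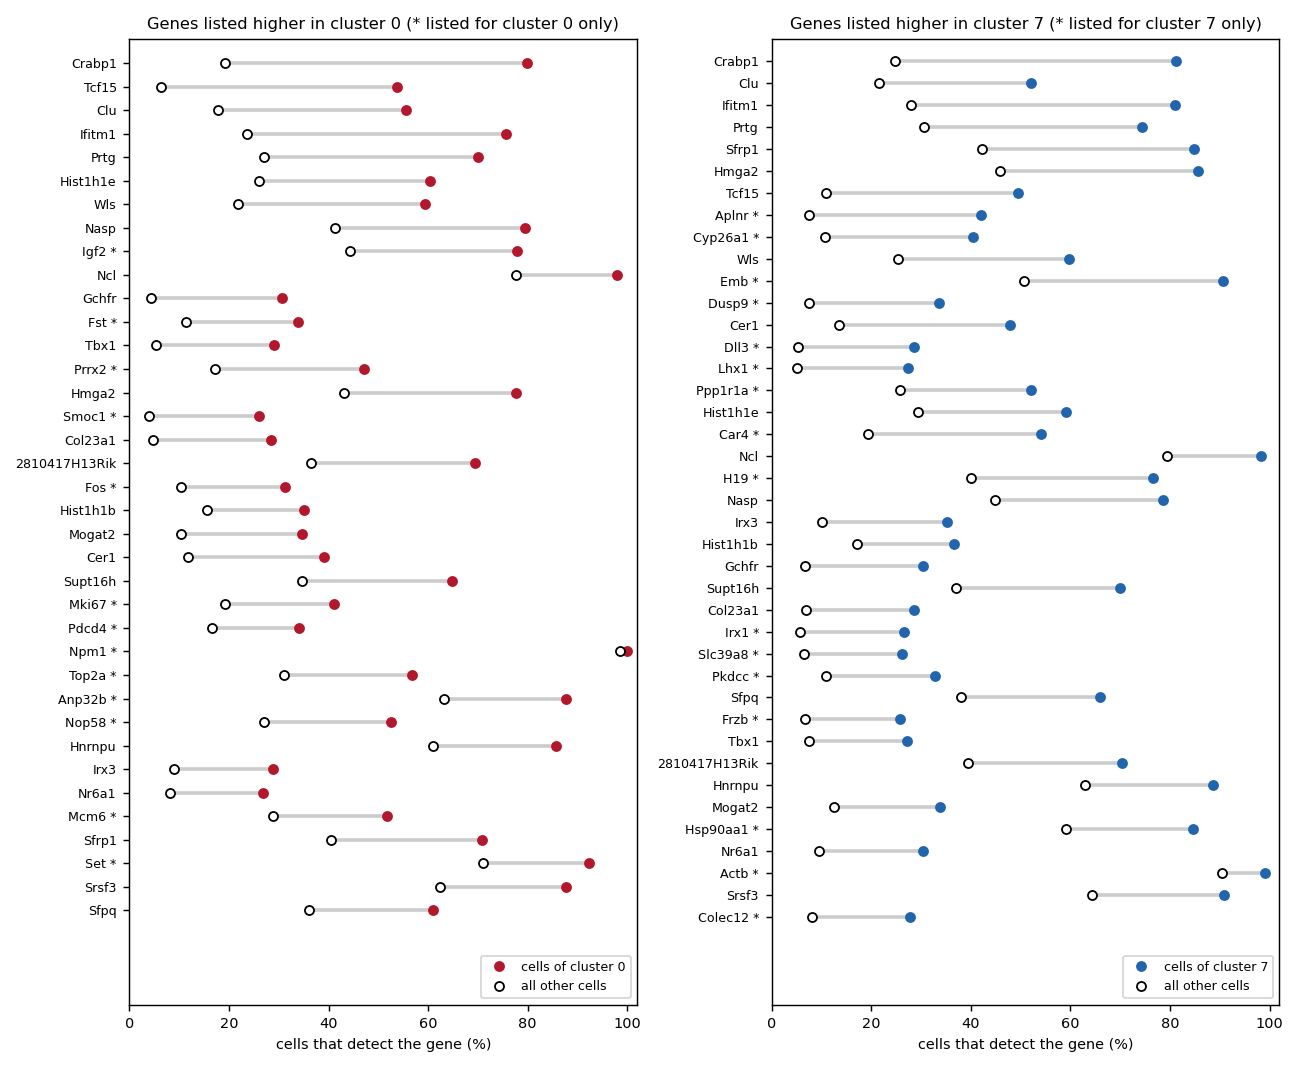
Percent of cells that detect each gene listed higher, inside the cluster (filled) and in all other cells (open), from the authors' deposited table, ordered by fold change. Crabp1 heads both panels, at 79.9% against 19.2% in cluster 0 and 81.2% against 24.7% in cluster 7, and asterisks mark the 13 and 16 genes listed for one of the pair.

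Several other shared higher genes encode proteins of chromatin and RNA processing. They were picked out after their values were seen, and how many such genes the table holds was not counted. They were the linker histones Hist1h1e and Hist1h1b, the histone chaperones Nasp and Supt16h, the architectural protein Hmga2, nucleolin (Ncl) and the RNA-binding proteins Hnrnpu, Sfpq and Srsf3. Hist1h1e was 2.54-fold higher in cluster 0 and 2.02-fold in cluster 7 per the authors' deposited table. Nasp was detected in 79.4% of cluster 0 cells against 41.4%, and in 78.7% of cluster 7 cells against 44.9%, per the authors' deposited table. Hmga2 was in 77.6% of cluster 0 cells against 43.2% and in 85.6% of cluster 7 cells against 45.8%, with folds of 2.01 and 2.41 per the authors' deposited table. Cluster 0 alone of the pair listed the nucleolar genes Npm1 and Nop58, the histone chaperones Set and Anp32b, and the proliferation genes Mki67, Top2a and Mcm6. Npm1 was at 1.79-fold higher although 100% of cluster 0 cells and 98.5% of the others detected it, per the authors' deposited table. Mki67 was in 41.1% against 19.3% and Top2a in 56.8% against 31.0% of cells per the authors' deposited table. Of 18 G2 and M phase genes listed anywhere, 2 were higher in cluster 0 and 0 in cluster 7, and of 8 S phase genes 1 and 0. These counts do not show a difference between the clusters. Of the 1197 genes, 3.09% were listed higher in cluster 0 and 3.34% in cluster 7. By the bound used below, the margin of Top2a over cluster 7 could be as small as 1.01-fold, and Mcm6 could be as high there. Mki67, in 22.7% of all cells, could not be placed. The older symbol 2810417H13Rik, listed higher in both, was counted in neither list. It was in 69.4% of cluster 0 cells against 36.4% and in 70.3% of cluster 7 cells against 39.4%.

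Cluster 2, which listed the contractile genes of heart muscle at its highest folds, listed 14 of the 24 shared higher genes as lower. Over the whole table, cluster 2 listed 308 of the 1197 genes as lower. It holds 12.6% of all cells, and folds without these cells were computed by taking them out of the reference. Hist1h1e then stood 2.33-fold higher in cluster 0 and 1.86-fold in cluster 7, and Nasp 1.99-fold and 1.70-fold. Srsf3, Sfpq and Hnrnpu no longer reached 1.65-fold in either cluster, with Srsf3 at 1.46-fold in cluster 0 and 1.49-fold in cluster 7. Neither did Npm1, Set, Anp32b, Top2a, Nop58 and Mcm6 in cluster 0, where none was above 1.64-fold (Nop58), while Mki67 remained at 1.68-fold. Of the 21 higher genes of cluster 0 that cluster 2 also lists, 11 still passed the threshold and 10 did not, and of 17 in cluster 7, 11 did and 6 did not. Crabp1 was still 4.16-fold higher in cluster 0 and 2.82-fold in cluster 7.

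The lower genes included 3 members of the Id family. Id1, Id2 and Id3 encode inhibitors of basic helix-loop-helix factors and are direct targets of BMP signalling. The authors' deposited table had Id2 in 4.1% of cluster 0 cells and 39.3% of the others, 3.64-fold lower. In cluster 7 the authors' deposited table had Id2 in 2.7% of cells against 36.1%, 3.54-fold lower. The pair held 2.44% of all cells that detected Id2, the smallest share among the 29 shared lower genes. Id3 was 3.41-fold lower in cluster 0 and 2.93-fold in cluster 7, and Id1 was 2.01-fold and 1.80-fold lower, per the authors' deposited table. Of the 12 BMP, TGF-beta and Nodal genes in the table, these 3 were listed lower in each cluster. The background was 3.76% of the 1197 genes listed lower in cluster 0 and 2.84% in cluster 7. Clusters 3 and 8 had nearly the same Id2 values, 3.5% and 4.5% of cells per the authors' deposited table, so a low Id2 was not particular to the pair. Id2 was listed higher in clusters 1, 5 and 11.

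The 250 bases before the start of Id2 (chr12:25096093-25096342, minus strand, RefSeq on GRCm38.p6) are shown because it is the shared lower gene with the fewest detecting cells in the pair. Capitals mark GGCGCC, 231 to 226 bases before the start.
Id2: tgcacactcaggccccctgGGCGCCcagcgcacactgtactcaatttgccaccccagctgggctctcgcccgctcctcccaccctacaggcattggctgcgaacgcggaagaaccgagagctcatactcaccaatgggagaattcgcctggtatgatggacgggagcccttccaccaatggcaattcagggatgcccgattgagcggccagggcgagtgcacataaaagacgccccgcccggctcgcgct
Of the shared genes with an entry, 5 of 21 lower ones and 2 of 16 higher ones held GGCGCC, and Crabp1 was one of the higher ones. Among all genes with an entry the share was 10.8%. The same letters thus stood before genes listed in opposite directions, and whether the site acts on any of them was not tested.

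A few regulators of the G1 phase were listed lower. Cdkn1c, an imprinted inhibitor of cyclin-dependent kinases, was in 16.2% of cluster 0 cells against 63.6%, 6.92-fold lower per the authors' deposited table. In cluster 7 it was in 20.5% of cells against 58.9%, 5.57-fold lower per the authors' deposited table. The D cyclin gene Ccnd2, which drives the opposite step, was lower as well, at 3.80-fold in cluster 0 and 3.31-fold in cluster 7 per the authors' deposited table. Ccnd1 was 1.83-fold and 1.65-fold lower per the authors' deposited table, the smallest change of any shared lower gene in cluster 7. Of 9 cyclin and inhibitor genes in the table, 3 (Ccnd1, Ccnd2 and Cdkn1c) were listed lower in each cluster and 0 higher. Over all 1197 genes, 3.76% were listed lower in cluster 0 and 2.84% in cluster 7. Without cluster 2 in the reference Ccnd2 was 4.29-fold lower in cluster 0 and 3.68-fold in cluster 7, so this difference was larger without it.

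Imprinted genes went in both directions. Of 13 in the table, cluster 0 listed 5 lower and 1 higher, and cluster 7 listed 4 lower and 1 higher. Beside this, cluster 0 listed 3.76% of the 1197 genes lower and 3.09% higher, and cluster 7 listed 2.84% and 3.34%. Mest, a hydrolase gene expressed from the paternal copy, was 4.01-fold lower in cluster 0 and 3.78-fold in cluster 7 per the authors' deposited table. Nnat was 2.18-fold and 2.08-fold lower and Meg3 2.02-fold and 1.70-fold lower per the authors' deposited table. With cluster 2 taken out, Meg3 was 1.79-fold lower in cluster 0, and in cluster 7 it was no longer past the threshold, at -0.41 on the natural log scale. For Meg3 detection hardly differed, at 78.2% of cluster 0 cells against 82.5% and 81.5% of cluster 7 cells against 81.8% per the authors' deposited table.

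The higher imprinted gene was Igf2 in cluster 0 and H19 in cluster 7. Igf2 encodes a fetal growth factor and H19 a noncoding RNA, and they lie next to each other on chromosome 7 with 0 protein-coding genes starting between them in RefSeq (GRCm38.p6). Igf2 was in 77.9% of cluster 0 cells and 44.4% of all others, 2.21-fold higher per the authors' deposited table. H19 was in 76.7% of cluster 7 cells and 40.0% of all others, 1.89-fold higher per the authors' deposited table. A gene detected in at least 25% of all cells and not listed for a cluster must lie there within 1.65-fold of the remaining cells, unless its p-value missed the authors' limit. On that condition the Igf2 level in cluster 0 was at least 1.18-fold higher than in cluster 7, and the H19 level in cluster 7 at least 1.19-fold higher than in cluster 0. Cluster 9 listed Igf2 at 3.42-fold and cluster 14 listed H19 at 2.80-fold higher per the authors' deposited table.

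Of 20 genes of a cytoskeleton list in the table, cluster 0 listed 5 lower and 0 higher, and cluster 7 listed 4 lower and 1 higher. The background was 3.76% of the 1197 genes listed lower in cluster 0 and 2.84% in cluster 7. The list does not hold Acta2, Tpm1, Myl9, Cfl2, Dstn and Pfn2, which cluster 0 also listed lower. Of these, cluster 7 listed Myl9 and Pfn2 lower. It could not list Acta2 lower, since only 22.3% of all cells detected that gene. Vim, the mesenchymal intermediate filament, was in 20.5% of cluster 0 cells against 54.7% and in 26.5% of cluster 7 cells against 51.1%, at 3.45-fold and 2.61-fold lower per the authors' deposited table. Tmsb4x, an actin-binding peptide, was 2.73-fold lower in cluster 0 and 1.66-fold in cluster 7, with 70.5% and 82.3% of cells detecting it, per the authors' deposited table. Krt18 was 2.89-fold and 2.00-fold lower and the tubulin gene Tubb2b 2.53-fold and 1.79-fold lower per the authors' deposited table. The 53 shared genes all lay within 0.5 of each other on the natural log scale, and 5 of them differed by at least 0.25. These were Tmsb4x, Sfrp1, Krt18, Tubb2b and Myl9, and all 5 had the higher level in cluster 7, by 1.52, 1.51, 1.35, 1.32 and 1.31 times. Actb, the main cytoskeletal actin, was listed for cluster 7 at 1.66-fold higher per the authors' deposited table. On the condition above, its level there was at least 1.06-fold above that in cluster 0. A margin of nearly this size follows from the cluster sizes alone for any gene listed higher in cluster 7 that can be placed. Without cluster 2 in the reference Actb was 1.55-fold higher, below the threshold. Krt8 and Tpm1 were listed lower for cluster 0 only and lay at least 1.39-fold and 1.66-fold below cluster 7 on the same condition. More generally, 17 of the 24 shared higher genes and 21 of the 29 shared lower genes were detected in a larger share of cluster 7 cells. Depth per cell is not known for either cluster, and its part in these detection shares was not tested.

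Metabolic and membrane genes added to the list of cluster 7. Emb, embigin, a partner of lactate transporters, was in 90.7% of cluster 7 cells and 50.6% of all others, 2.07-fold higher per the authors' deposited table, and cluster 3 listed it at 5.05-fold higher. Its level in cluster 7 was at least 1.29-fold above that in cluster 0 on the condition above. The carbonic anhydrase gene Car4 was 1.98-fold higher per the authors' deposited table, beside 3.73-fold in cluster 3 and 2.48-fold in cluster 8. Dusp9, a phosphatase of MAP kinases, was 2.06-fold higher and Ppp1r1a, an inhibitor of protein phosphatase 1, 2.03-fold higher in cluster 7 per the authors' deposited table. Irx1, Slc39a8, Pkdcc, Colec12 and Hsp90aa1 completed the 16 genes listed higher for cluster 7 only, between 1.66-fold and 1.75-fold per the authors' deposited table. Hsp90aa1 was 1.54-fold higher without cluster 2, below the threshold. For cluster 0 only, the mesenchymal homeobox gene Prrx2 was in 47.1% of cells against 17.3% and the secreted matrix gene Smoc1 in 26.1% against 4.0% per the authors' deposited table. Fos, an immediate early gene that cell handling can raise, was in 31.3% of cluster 0 cells against 10.3% per the authors' deposited table, 1 of 9 stress genes in the table. Of all 1197 genes, 3.09% were listed higher in cluster 0. Pdcd4, an inhibitor of translation, was 1.80-fold higher in cluster 0 per the authors' deposited table.

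Growth factor, metabolic and matrix genes made up other parts of the lower lists. Igfbp2, which binds insulin-like growth factors, was in 29.6% of cluster 0 cells against 58.6% and in 33.2% of cluster 7 cells against 55.7% per the authors' deposited table. Its folds were 3.32 and 2.87 lower per the authors' deposited table, and 3.80 and 3.24 lower without cluster 2. Ckb, the brain form of creatine kinase, was in 3.2% of cluster 0 cells against 27.9% and in 5.7% of cluster 7 cells against 25.4% per the authors' deposited table. Cluster 0 only listed the imprinted gene Peg3 at 1.85-fold lower, the glucose transporter gene Slc2a3 at 1.88-fold lower and the matrix gene Sparc at 2.05-fold lower per the authors' deposited table. Slc2a3 was 1.61-fold lower without cluster 2, below the threshold. Cluster 7 only listed 5 genes lower, among them the galectin gene Lgals1 at 1.74-fold, the respiratory subunit gene Ndufa6 at 1.71-fold and the microfibril gene Mfap2 at 1.72-fold per the authors' deposited table.

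Genes listed for one of the pair could be placed against the other where at least 25% of all cells detected them. Of the 13 higher genes of cluster 0 only, 7 could be placed, and 4 of these (Igf2, Anp32b, Npm1 and Top2a) lay above the highest level that cluster 7 could have. The margin was at most 1.01-fold for Anp32b, Npm1 and Top2a. Of its 16 lower genes 11 could be placed, and 9 lay below the lowest level that cluster 7 could have. For cluster 7 only, 5 of 16 higher and 5 of 5 lower genes could be placed, and all 10 lay beyond the level that cluster 0 could have. That count was fixed in advance, because cluster 7 is the smaller cluster. Any gene listed for it, even at the threshold, lies beyond the bound of cluster 0. The least margins ran from 1.06-fold (Actb) to 1.29-fold (Emb) for the higher genes and from 1.07-fold (Ndufa6) to 1.13-fold for the lower ones. Genes that were placed but not beyond the bound, such as Mcm6, Set and Nop58, may be close to the threshold in both clusters. The level in the other cluster is not known for genes that could not be placed. Some of these were far past the threshold where listed, such as Acta2 at 12.5-fold lower in cluster 0.

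The folds of several muscle and energy genes depended on whether cluster 2 was in the reference. Acta2, smooth muscle actin, was in 3.8% of cluster 0 cells against 25.7% and 12.5-fold lower per the authors' deposited table, and 3.21-fold lower without cluster 2. Gyg, which primes glycogen synthesis, was 6.53-fold lower in cluster 0 and 6.44-fold in cluster 7 per the authors' deposited table, and 1.89-fold and 1.92-fold lower without cluster 2. The light chain gene Myl9 was 5.61-fold lower in cluster 0 and 3.94-fold in cluster 7 per the authors' deposited table, against 1.72-fold and 1.23-fold without cluster 2. Gpx3, a secreted glutathione peroxidase, was 2.72-fold lower in each per the authors' deposited table, yet 35.6% of cluster 0 cells against 34.2% and 34.0% of cluster 7 cells against 34.4% detected it. With cluster 2 left out, Gpx3 in cluster 0 turned to 1.01-fold higher and in cluster 7 was 1.05-fold lower. Tpm1, an actin-binding tropomyosin gene, was 2.98-fold lower in cluster 0 per the authors' deposited table and 1.22-fold lower without cluster 2. In all, of the 27 lower genes of cluster 0 that cluster 2 also lists, 15 still passed the threshold of the table, 11 did not and 1 turned, and of 20 in cluster 7, 14 did and 6 did not.

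**Figure D4:**
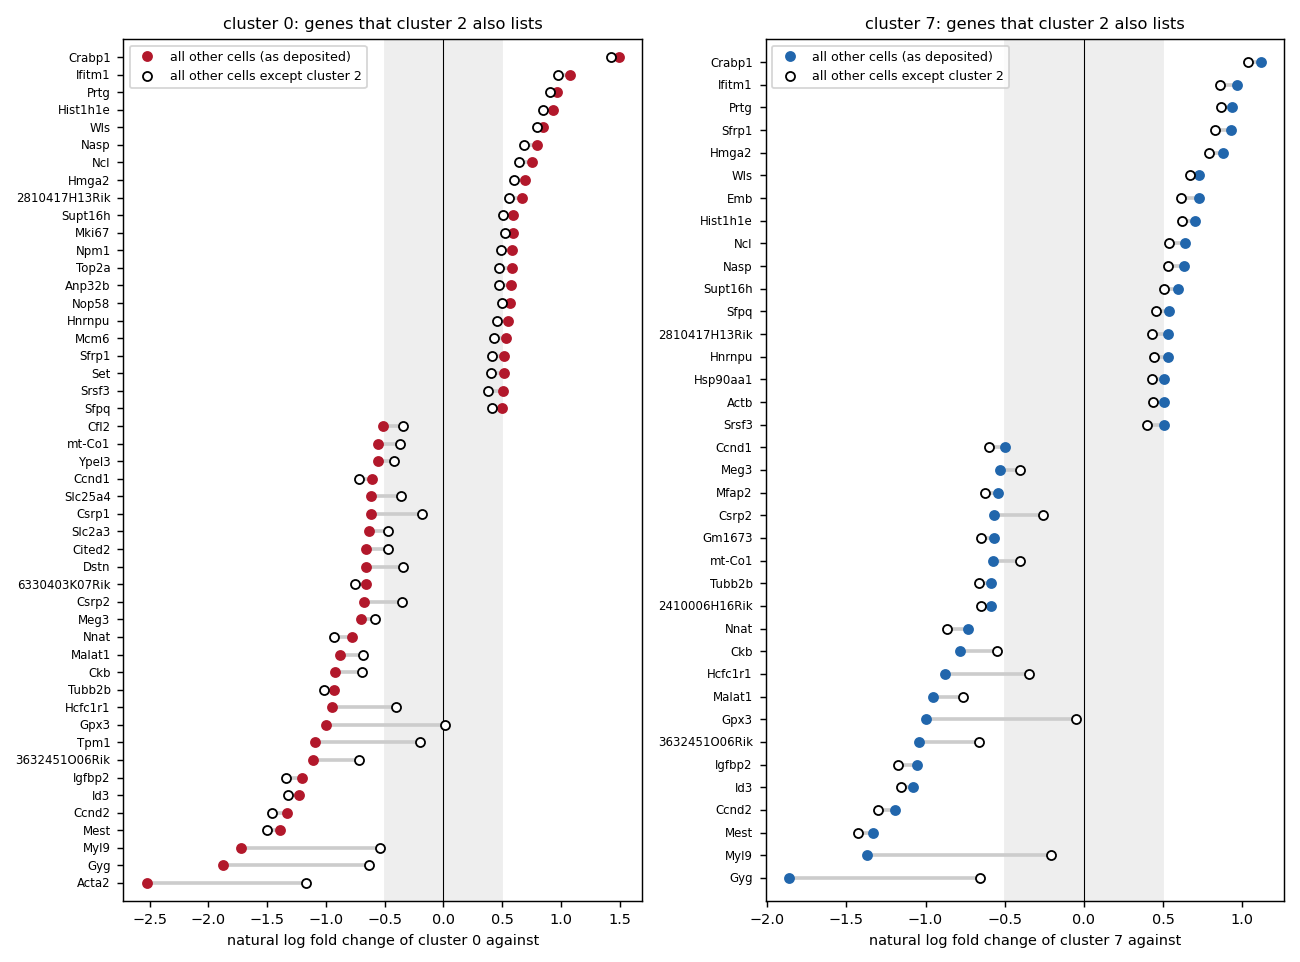
Natural log fold change (x axis) of cluster 0 (left) and cluster 7 (right) for every gene that cluster 2 also lists, against all other cells as deposited (filled) and with cluster 2 taken out of them (open). The grey band marks changes below 0.5, into which Gpx3, Tpm1 and Csrp1 move on the left and Gpx3, Myl9 and Hcfc1r1 on the right, while Id3, Ccnd2 and Mest stay outside it.

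Malat1, a nuclear RNA found in nearly every cell, and mt-Co1, a mitochondrially encoded oxidase subunit, were also lower. Malat1 was 2.40-fold lower in cluster 0 and 2.59-fold in cluster 7, and mt-Co1 1.74-fold and 1.78-fold lower, per the authors' deposited table. Without cluster 2 they were 1.98-fold and 2.14-fold lower for Malat1 and 1.45-fold and 1.49-fold lower for mt-Co1, which then missed the threshold in both. Of 10 mitochondrially encoded genes in the table, mt-Co1 was the single one listed for either cluster. Of the 1197 genes, 3.76% were listed lower in cluster 0 and 2.84% in cluster 7. The share of mitochondrially encoded RNA varies with cell quality and with cell type, and its part in the other results was not tested.

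Markers of other cell types were looked up in the same way. The background was 3.09% of the 1197 genes listed higher and 3.76% lower in cluster 0, and 3.34% and 2.84% in cluster 7. In lists of 22 genes or fewer, none or 1 listed gene cannot be told from these shares. None of the 11 pluripotency genes in the table was listed for either cluster, nor any of 10 neuron genes, 2 neural crest genes, 4 FGF pathway genes or the 1 endothelial and blood gene. Of 11 neural progenitor genes, 2 were listed higher in each cluster, Crabp1 and Irx3. Of 14 endoderm genes 1 was listed higher in each cluster, which was Cer1, also used above as a marker of the pair. Of 10 lateral plate and cardiac progenitor genes 1 was listed higher in each, which was Tbx1. None of 22 cardiomyocyte genes was listed higher, while 3 were lower in cluster 0 and 1 in cluster 7. Acta2, among these 3 and among the smooth muscle genes below, was detected in 22.3% of all cells. That is too few for cluster 7 to list it lower. Of 7 epithelial genes, 2 were lower in cluster 0 and 1 in cluster 7. Of 20 smooth muscle, fibroblast and matrix genes, 5 were lower in cluster 0 (Acta2, Myl9, Sparc, Tpm1 and Vim) and 3 in cluster 7 (Lgals1, Myl9 and Vim).

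**Figure D5:**
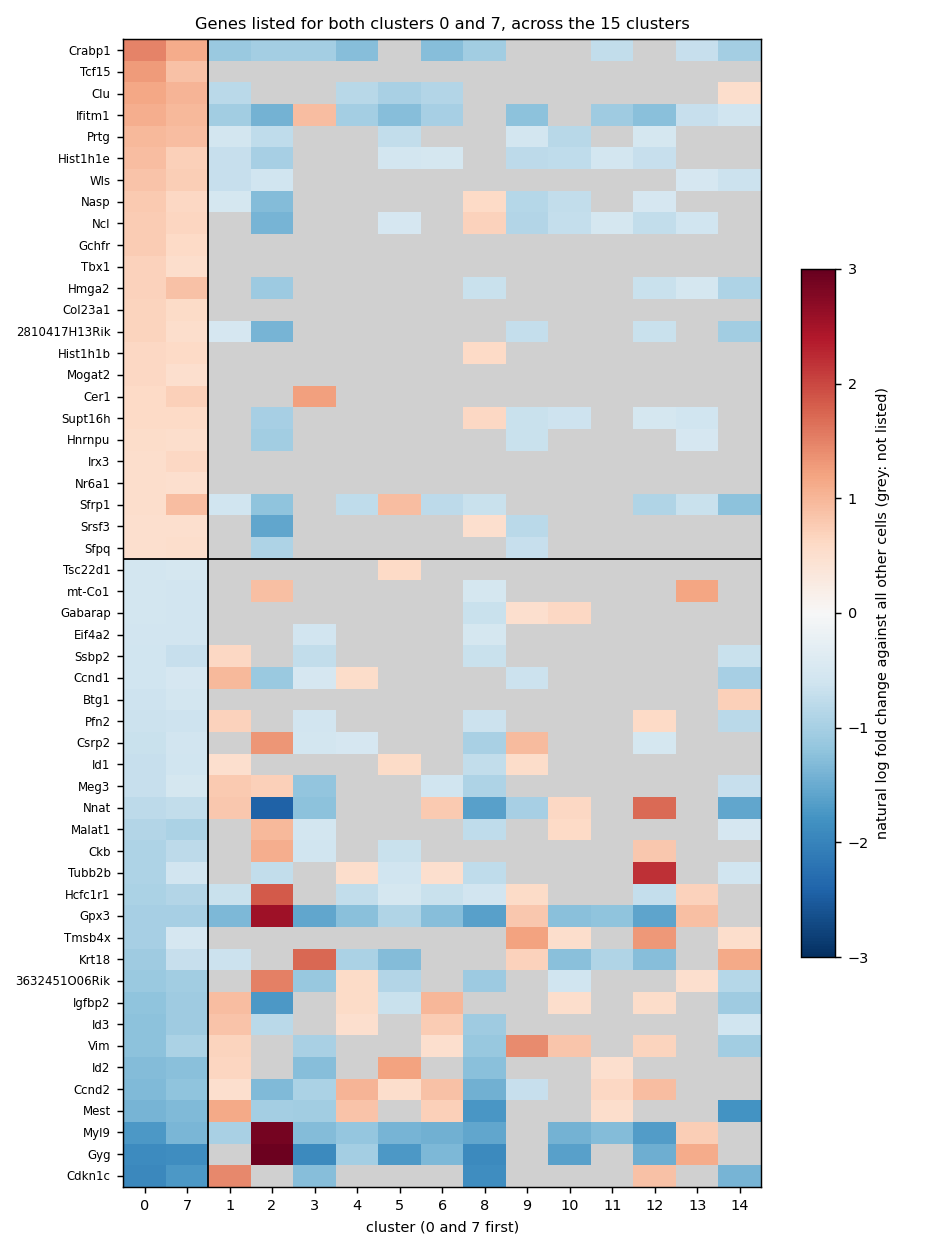
Natural log fold change of the 53 shared genes (rows) in each of the 15 clusters (columns, 0 and 7 first) from the authors' deposited table, with grey where a gene is not listed. The 24 genes above the horizontal line are higher in the pair and blue in most other clusters that list them, with red in cluster 3 for Cer1 and Ifitm1 and in cluster 8 for Nasp and Ncl.

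The other clusters that listed a shared gene were read side by side and not as an overlap, since all comparisons draw on the same cells. Cluster 3 listed Ifitm1 and Cer1 higher, as the pair did, but listed Crabp1 at 2.77-fold lower with 11.3% of cells detecting it per the authors' deposited table. Cluster 8, whose leading gene was Pou5f1, listed Nasp, Ncl, Supt16h, Srsf3 and Hist1h1b higher, but Crabp1 at 2.81-fold lower per the authors' deposited table. Both listed Vim, Id2, Cdkn1c, Mest and Ccnd2 lower. For Cdkn1c the level relative to all cells was 0.167 in cluster 0, 0.190 in cluster 7, 0.164 in cluster 8 and 0.303 in cluster 3, as derived from the authors' deposited table. With each of the pair taken out of the other's reference, all 53 genes kept their direction and passed the threshold. This was fixed in advance, since each shared gene had the same sign in both clusters and its fold could only grow. Crabp1 then stood 6.16-fold above the other 13 clusters in cluster 0 and 5.70-fold above them in cluster 7, and Tcf15 4.44-fold and 3.75-fold, as derived from the authors' deposited table.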

How the data were processed

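Single-cell libraries (10x Genomics V2 chemistry, HiSeq4000) were made from mesoderm and cardiac-stage cells of 2 genotypes, 1 library a group. Cell Ranger, Seurat and the mm9 build are named in the submitters' processing notes, with no version used here. The deposited table gives, per the file headers, for each cluster and gene an average log fold change against all other cells, the fraction of cells detecting the gene inside and outside the cluster, a p-value and an adjusted p-value. The deposited fold changes were read as natural log values made by the authors, although the header names no base, since a natural log left 38 of 39 checkable genes within their possible range, against 33 for log2 and 6 for log10. Cluster numbers are the authors' own. The authors' p-values are over cells of clusters formed from the same genes, so none is reported. How cells were filtered, doublets handled and clusters set was not stated by any source read here.

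Cluster sizes were solved by least squares from the detection fractions of 407 genes listed for 2 or more clusters (1422 entries), with a residual SD of 0.0272 percentage points. Levels over all cells, differences between clusters 0 and 7, and folds without cluster 2 follow from the sizes and the deposited folds. A level includes the constant taken to be added to each mean, which no source read here states. The calculation was tested on simulated data. Alternatives were other fold, detection and p-value thresholds, other ways to solve the sizes, and other references. The genes named are the 15 highest and 10 lowest of each cluster, the largest of those listed for one cluster only, listed members of gene lists, and the 6 markers, with predicted genes left out. 2810417H13Rik was named as an exception. The members and lists were chosen with earlier results of these data known. Promoters were matched by symbol. The calculations used scipy 1.17.1, pandas 2.3.3 and numpy 2.4.6 under Python 3.11.15, and the plots matplotlib 3.10.9.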

Additional observations from a re-analysis of the deposited data

How the results depend on the processing

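With the limit on the fold raised to 0.75 on the natural log scale, cluster 0 had 11 higher and 22 lower genes and cluster 7 had 9 and 14, with 5 higher and 14 lower in both, 14 for cluster 0 only and 4 for cluster 7 only. With a limit of 1 these counts were 4, 15, 2, 10, 2, 10, 7 and 0 in the same order. With detection of at least 50% of cells on one side they were 23, 20, 21, 15, 15, 13, 15 and 8. An adjusted p-value below 0.05 changed no count, and leaving out ribosomal, mitochondrial and predicted genes moved none by over 1.5 times. With a limit of 0.25 in place of 0.5 for shared genes and 0 for the others, 5 shared genes differed between clusters 0 and 7, and 2 genes of cluster 0 only and 1 of cluster 7 only lay beyond the bound. Without cluster 2 in the reference, Gpx3 in cluster 0 turned to 0.0114 higher on the natural log scale. Taking the other of clusters 0 and 7 out of the reference, an alternative chosen after seeing the data, changed no direction or call of a shared gene. It could not have done so, because each shared gene had the same sign in both clusters. The sizes of clusters 0 and 7 moved by less than the residual SD when solved by least absolute deviations or from genes in 3 or more clusters. No paired analysis was possible because each group had 1 library and no column names a library. Depth per cell is unknown, and genes below the thresholds of the table are not seen.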
